A study of Mus musculus with 25 samples.

Results

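The miRNAs described here are 6 mature miRNAs of striated muscle: mmu-miR-1a-3p, mmu-miR-133a-3p, mmu-miR-133b-3p, mmu-miR-133a-5p, mmu-miR-206-3p and mmu-miR-499-5p, written below without the prefix for mouse. They were chosen by name, as the systematic names in the scanner files, from 1122 mouse miRNAs on the array, and serve as a reading of skeletal muscle in mammary tissue. MiRNAs were measured in total RNA of snap-frozen tissue from FVB females on 25 one-colour Agilent arrays. There were 2 pools of wild-type mammary gland, replicate 1 from multiparous and replicate 2 from nulliparous mice; the number of animals in a pool is not given in the sources used here. The tumours were 7 with genotype MMTV-Met (Met), 8 with MMTV-Met;Trp53fl/+ (MetTrp53) and 8 with Trp53fl/+ (Trp53). The MMTV promoter, from the mouse mammary tumour virus, drives the Met receptor gene mainly in mammary epithelium. Trp53fl/+ is 1 conditional allele of the p53 gene, and the series design adds Cre to both Trp53 groups without naming its promoter. The mice's ages are not given in the sources used here. Whether each tumour had its own animal is not stated either, so the p-values reflect only how these samples scatter.

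MiRNAs are short RNAs that pair with messenger RNAs through a seed at their 5′ end and lower the output of those messages. MiR-1 and miR-133 are made from shared transcripts in skeletal and heart muscle under the control of myogenic factors such as MyoD and MEF2, and miR-206 and miR-133b come from a transcript of skeletal muscle. MiR-1 and miR-206 share a seed and favour muscle differentiation, while miR-133 is known for favouring the growth of muscle precursors. The mammary gland lies in a fat pad between skin and body-wall muscle.

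RefSeq mature sequences, with coordinates on build GRCm38.p6, matched 3 of the 6 miRNAs by name. They are shown because the first pair comes from neighbouring hairpins of 1 transcript and the last from a myosin gene. Capitals mark the seed, bases 2 to 8.
miR-206-3p: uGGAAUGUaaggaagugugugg
miR-133b-3p: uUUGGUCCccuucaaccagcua
miR-499-5p: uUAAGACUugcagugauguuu
MiR-206-3p lies at chr1:20679055-20679076 and miR-133b-3p at chr1:20682834-20682855, both on the plus strand and inside Lincmd1, a long non-coding RNA gene of muscle. Their hairpins are 3686 bases apart. MiR-499-5p lies at chr2:155622893-155622913 on the plus strand inside Myh7b, a myosin heavy chain gene. No pair of the 3 shares a seed, and aligned from the 5′ end miR-206-3p and miR-133b-3p are identical at 4 of 22 positions. The pair that shares a transcript thus has different seeds.

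Each level below is a log2 of the scanner's intensity, averaged over 2 probes per miRNA, after every array was scaled to the same 75th percentile of 220 probes that were above background on all arrays. A signal under the floor of 3.61 was set to that floor, so a level of 3.61 means a signal at or under it. The floor is the median over arrays of the lowest signal well above background. The scanner software can still detect a miRNA at that level. Levels of different miRNAs are not compared because each probe has its own brightness. The 75th percentiles ran from 279.8 to 915 before scaling, and the scanner software detected 220 to 334 mouse miRNAs per array. Of the 1122 miRNAs, 330 were detected on both pools or at least 7 tumours and were tested, and all 6 muscle miRNAs were among them. Of these, miR-133a-5p, miR-206-3p and miR-499-5p passed only through the pools. In whole tissue, fewer cells of a type and less RNA per cell cannot be told apart.

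All 6 muscle miRNAs (mmu-miR-1a-3p, mmu-miR-133a-3p, mmu-miR-133b-3p, mmu-miR-133a-5p, mmu-miR-206-3p and mmu-miR-499-5p) were lower in the tumours than in the wild-type pools, and all 23 tumours lay below both pools for each of them. That gap was not particular to muscle. Of the marker miRNAs below, miR-378-3p, miR-378-5p, miR-365-3p, miR-143-3p, miR-145-5p, miR-126-3p, miR-126-5p and miR-486-3p also had all 23 tumours below both pools. MiR-193b-3p and the lists of red blood cells, leukocytes and epithelium did not. The share of all 330 miRNAs with such a gap is not given here. Among the 330 miRNAs tested, 7.88% were lower at a limma adjusted p under 0.05, against 6 of 6 of the muscle miRNAs. For the 3 that entered the test only through the pools, this was the direction in which they could differ. The median change of the 6 was -5.84 on the log2 scale, and that of all 330 was 0.13.

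MiR-1a-3p (mmu-miR-1a-3p), which favours muscle differentiation, had a level of 10.96 in the multiparous pool and 11.82 in the nulliparous pool. Its lowest, median and highest levels were 3.61, 3.61 and 7.77 in Met tumours, 3.61, 3.61 and 9.08 in MetTrp53 tumours and 3.61, 3.61 and 8.29 in Trp53 tumours. The median tumour of each genotype thus was at the floor for miR-1a-3p, and the highest tumour stayed below the lower pool. It was well above background, meaning that over 50% of the spots of at least 1 probe were called so by the scanner software, in 6 of 23 tumours: Met tumours 2, 4 and 5, MetTrp53 tumour 5 and Trp53 tumours 1 and 4. From the pools to the mean of the 3 genotypes the log2 level changed by -6.89 with an SE of 1.31 (limma adjusted p = 0.000584).

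MiR-133a-3p (mmu-miR-133a-3p), the partner of miR-1a in its transcripts, had levels of 11.43 and 11.85 in the multiparous and nulliparous pools. It was at the floor at the median of each genotype, with highest levels of 7.76 in Met, 8.94 in MetTrp53 and 9.03 in Trp53 tumours. The 6 tumours in which it was well above background were the same 6 as for miR-1a-3p. The log2 level changed by -7.11 with an SE of 1.37 (limma adjusted p = 0.000634). MiR-133a-5p, the other strand of that hairpin and usually the less abundant one, had levels of 5.77 and 6.11 in the pools. It was well above background in 4 tumours and there at most 4.29, near the floor, and its log2 level changed by -2.26 (SE 0.15, limma adjusted p = 1.88e-11). The other 19 tumours were set to the floor. That narrows the spread behind this SE and p, so the small p does not make it the strongest of the 6.

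MiR-133b-3p (mmu-miR-133b-3p), a product of the miR-206 transcript, had levels of 12.43 and 12.85 in the multiparous and nulliparous pools. Its highest tumour levels were 8.79 in Met, 9.91 in MetTrp53 and 10.1 in Trp53 tumours, and its median was the floor in each genotype. It was above background in 7 tumours, the 6 named above for miR-1a-3p and Trp53 tumour 6. The log2 level changed by -7.81 with an SE of 1.68 (limma adjusted p = 0.00189), and leaving out the multiparous or the nulliparous pool ended the call, at a limma adjusted p of 0.0541 and 0.0542. The mature miR-133a-3p and miR-133b-3p are nearly identical, so their probes may share signal and the 2 do not count as separate readings.

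MiR-206-3p (mmu-miR-206-3p), which among these is the one most restricted to skeletal muscle, had levels of 8.76 and 9.25 in the multiparous and nulliparous pools. Its highest levels were 6.43 in Met, 6.49 in MetTrp53 and 7.63 in Trp53 tumours, and 5 of 23 tumours were above background. No tumour overlapped the pools. The log2 level changed by -4.79 (SE 0.89, limma adjusted p = 0.000515).

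MiR-499-5p, from the slow-fibre and heart myosin gene Myh7b, was just above the floor in the pools, at 3.97 and 3.77, and well above background in none of the 23 tumours. All 23 tumours were set to the floor. The change of -0.25 had a limma adjusted p = 0.000117. Tumours that share the same value narrow the spread behind that p, so its small size is not strong support. At this floor the mean of the pools was at least 1.05-fold higher than that of the tumours, a bound that does not hold for single tumours. That bound sets the pools' mean level over both probes against the lowest signal that was well above background on each tumour array. Where the floor was higher than that signal, the floor was used. On 5 of the 23 tumour arrays the lowest signal well above background lay above the pools' mean of the brighter probe. By that probe, only 18 tumour arrays could have shown miR-499-5p at the level of the pools. The highest tumour signal of its brighter probe was 35.9% of the pools' mean, in Trp53 tumour 1, with 0% of spots well above background. The change of miR-499-5p depended on the processing: it was 0.0 with a floor 2 times higher, -2.22 with a floor 4 times lower and -0.02 with normexp background correction (limma adjusted p = 0.953). It was -2.46 in the authors' deposited table, to which no floor was applied here and where the pools stood at 4.16 and 4.04 and the highest tumour at 2.39.

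**Figure D1:**
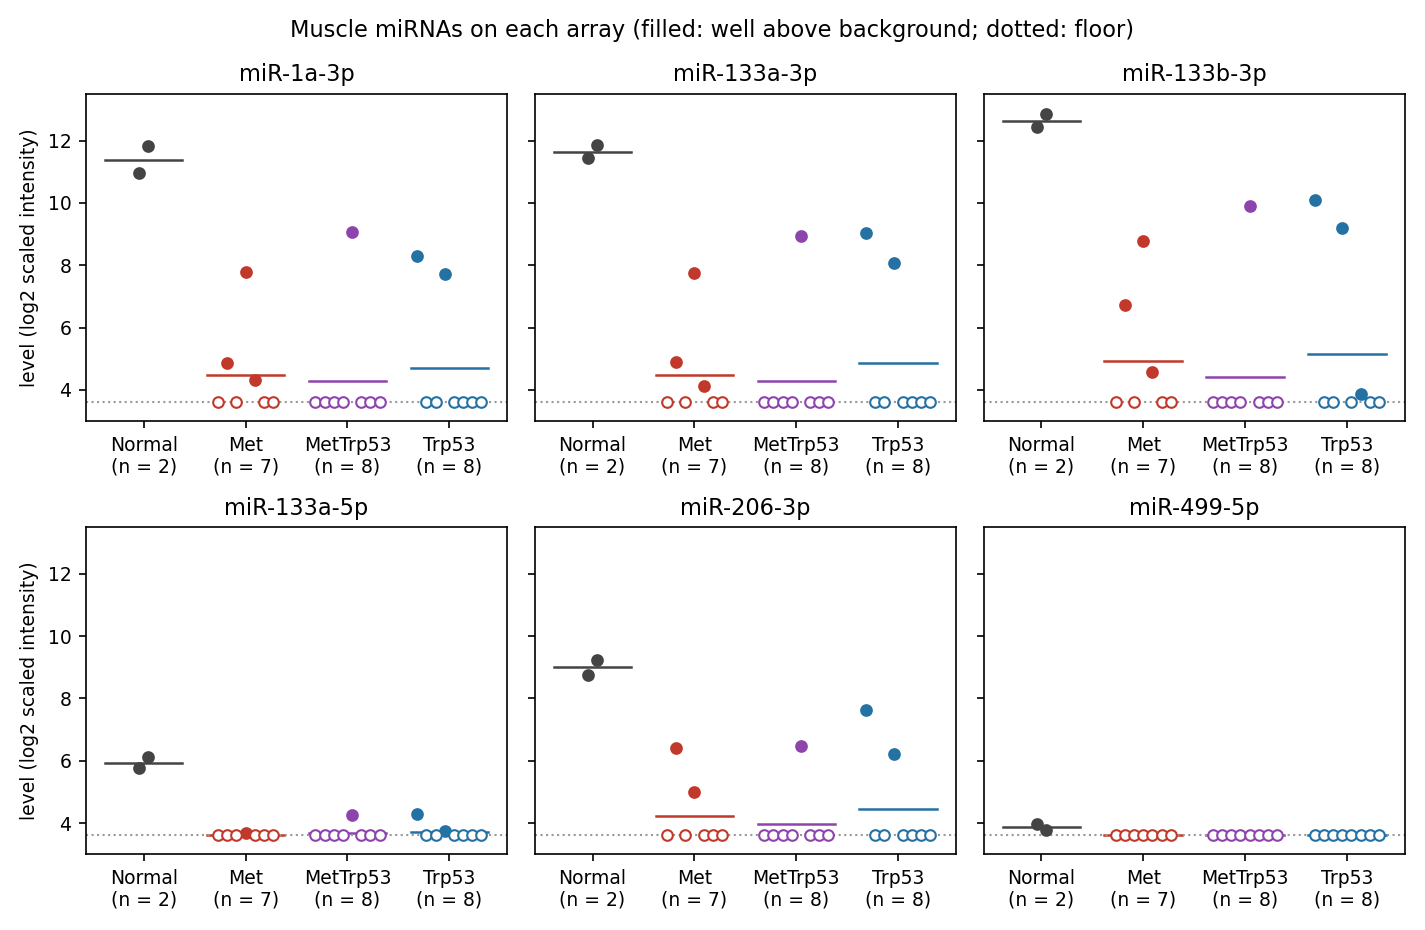
Each point is 1 array's log2 level of a muscle miRNA, by group, with the group mean as a bar, filled where the miRNA was well above background and open where it was not; the dotted line is the floor of 3.61. Both pools stand above all 23 tumours in each panel, and most tumours are at the floor.

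The same direction held in each genotype. Of the 6 muscle miRNAs, 6 were lower in Met tumours, where 8.18% of all miRNAs tested were lower, 6 in MetTrp53 tumours, where 8.48% were, and 6 in Trp53 tumours, where 7.88% were, all at a limma adjusted p under 0.05. These comparisons share the same 2 pools and are not separate evidence, and in each of them miR-133a-5p, miR-206-3p and miR-499-5p were tested only because the pools detected them. The change of miR-133b-3p was -7.71 in Met (95% interval -11.49 to -3.92), -8.24 in MetTrp53 (-11.97 to -4.51) and -7.49 in Trp53 tumours (-11.22 to -3.76). That of miR-206-3p was -4.79, -5.03 and -4.56 in the same order. For miR-499-5p at the floor used, the mean of the pools was at least 1.09-fold higher than that of Met tumours. It was at least 1.006-fold higher than the mean of MetTrp53 and 1.07-fold higher than that of Trp53 tumours. These bounds do not hold for single tumours, and the change depended on the processing. It was 0.0 in each genotype with a floor 2 times higher. With normexp it was -0.0507 in Met, -0.0631 in MetTrp53 and 0.0564 in Trp53 tumours. For miR-133b-3p the limma adjusted p in Met tumours was 0.0896 without the multiparous and 0.0828 without the nulliparous pool, and in Trp53 tumours 0.0764 without the multiparous pool. Without the nulliparous pool, only miR-133a-5p and miR-499-5p passed in Trp53 tumours, 2 of 6, and the other 4 had limma adjusted p-values from 0.0502 to 0.0891. MiR-133a-5p and miR-499-5p had entered through the pools. MiR-499-5p was at the floor in all 23 tumours and miR-133a-5p in 19, which narrows the spread behind their p-values. The share of all miRNAs that passed without that pool is not given here.

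With only 2 pools, a test by ranks has little room. By an exact two-sided permutation test of the rank sum, each of the 6 had p = 0.00333 over 23 tumours and 2 pools. That is the smallest that 25 arrays can give, and it gave an adjusted p of 0.05 over 330 miRNAs. It was reached only because tumours were tied at the floor, since without ties the opposite arrangement counts as well. By that test 0 miRNAs passed, and 74 had an unadjusted p under 0.05. Within the slide that carried the multiparous pool, the 4 tumours there differed from it by -6.18 on average for miR-1a-3p (SD of tumours 2.34, n = 4). Within the slide of the nulliparous pool the difference was -7.17 (SD 2.08, n = 4). The same 2 slides gave -4.14 and -5.29 for miR-206-3p, so the direction was the same on both.

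**Figure D2:**
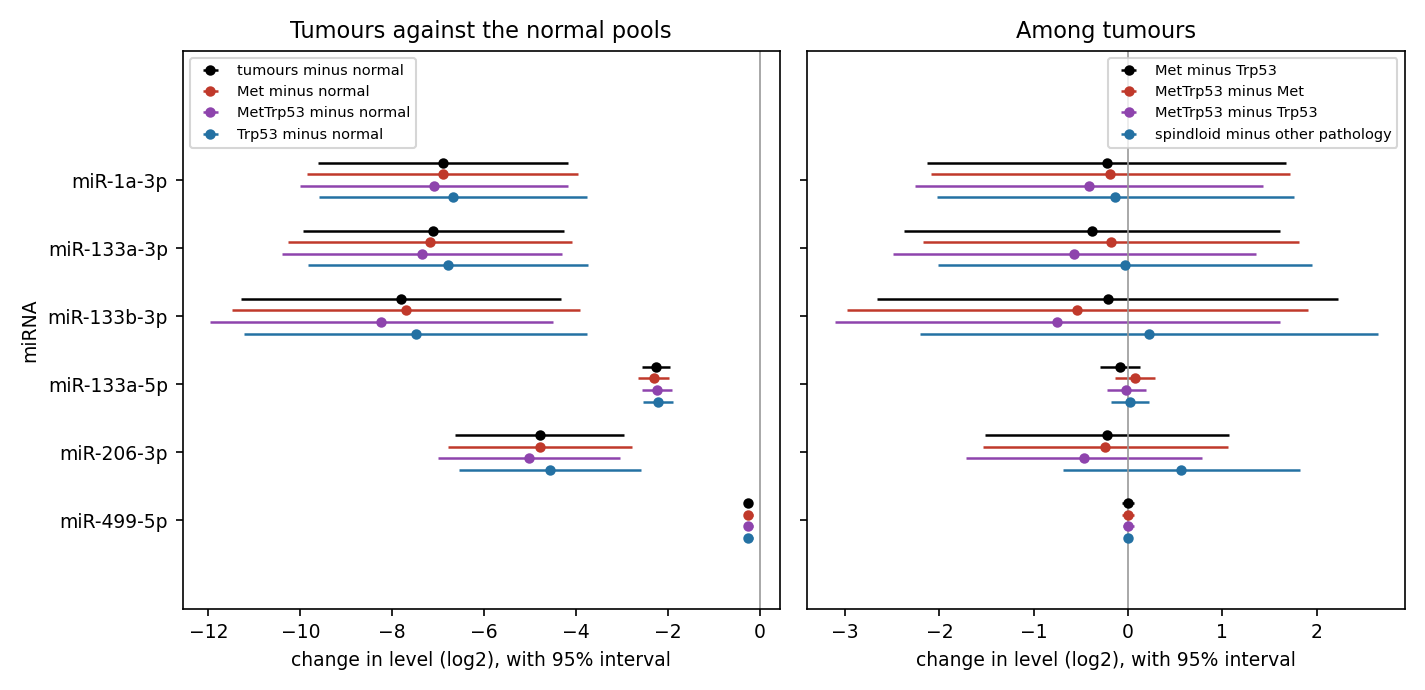
Points are limma changes in log2 level with 95% intervals for the 6 miRNAs, for tumours against the pools on the left and among tumours on the right. On the left all intervals lie below 0; on the right all of them include 0.

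Among the tumours, none of the muscle miRNAs differed by genotype at a limma adjusted p under 0.05. For Met against Trp53 tumours 0 of 6 passed, where 10.3% of all miRNAs tested did, for MetTrp53 against Met 0 of 6 and 0% of all, and for MetTrp53 against Trp53 0 of 6 and 0% of all. At an unadjusted p under 0.05 the counts over all 330 miRNAs were 79, 61 and 23, with 0 of the 6 in each. MiR-499-5p was at the floor in all tumours and could not differ among them, and miR-133a-5p was at the floor in 19 of 23. For 6 miRNAs a count of 0 is near a share of 10.3%, so it is not read as a result about them. The intervals were wide: Met minus Trp53 was -0.23 for miR-1a-3p (95% interval -2.13 to 1.68) and -0.22 for miR-133b-3p (-2.66 to 2.23). Single tumours turned these differences: for miR-1a-3p it was -0.77 without Met tumour 4 and 0.29 without Trp53 tumour 1, and for miR-133b-3p -0.86 and 0.49. With parity as a covariate they were 0.77 and 0.99. That fit left out the tumours without a stated parity, Met tumour 6 and Trp53 tumours 2, 4 and 8. All Met tumours with a stated parity were multiparous, so parity and genotype cannot be fully told apart here. MetTrp53 minus Trp53 was -0.47 for miR-206-3p (95% interval -1.72 to 0.78), -0.01 without Trp53 tumour 1 and -0.83 without MetTrp53 tumour 5. Spindloid tumours, a pathology label of 7 tumours, were compared with 15 of other labels in a model with genotype, and again 0 of 6 passed, with 0% of all miRNAs and 42 at an unadjusted p under 0.05. For miR-206-3p that difference was 0.57 (95% interval -0.69 to 1.82, limma adjusted p = 0.799), falling to 0.06 without Trp53 tumour 1 and rising to 0.89 without MetTrp53 tumour 5.

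A tumour was counted as carrying muscle miRNAs when miR-1a-3p, miR-133a-3p or miR-133b-3p was well above background, and 7 of 23 tumours did. They were 3 of 7 Met, 1 of 8 MetTrp53 and 3 of 8 Trp53 tumours. The largest of these differences, 12.5% of MetTrp53 against 42.9% of Met tumours, had p = 0.282 by Fisher's exact test, two-sided, and an adjusted p of 1 over 5 comparisons. By pathology they were 2 of 7 spindloid tumours and 5 of 15 others (Fisher's exact p = 1). By parity they were 2 of 9 nulliparous and 4 of 10 multiparous (Fisher's exact p = 0.628). All Met tumours with a stated parity were multiparous, so these 2 groups also differ in genotype. None of the 5 comparisons by label passed, with adjusted p-values of 1. By the scanner software's own detection call, 8 tumours counted, with MetTrp53 tumour 6 added.

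In the 7 tumours the amounts differed widely, and are given as the brighter probe's signal in percent of the mean of the 2 pools. On that scale the multiparous pool itself was at 73.3% for miR-1a-3p and 90.8% for miR-206-3p, and the nulliparous pool at 126.7% and 109.2%. MetTrp53 tumour 5, a poorly differentiated adenocarcinoma, had 19.7% for miR-1a-3p, 15.1% for miR-133a-3p, 15.2% for miR-133b-3p, 18.6% for miR-133a-5p and 16.4% for miR-206-3p. All 5 miRNAs stood between 15.1% and 19.7% of the pools in this tumour. Met tumour 4, an adenosquamous tumour, had 7.91%, 6.55%, 6.60%, 8.32% and 5.61% in the same order. Trp53 tumour 4, an adenocarcinoma, had 7.90%, 8.77%, 9.42%, 8.99% and 14.7%. On the log2 scale, miR-1a-3p, miR-133a-3p and miR-133b-3p relative to the pools spanned 0.43, 0.32 and 0.21 in these 3 tumours. Between the 2 pools the brighter probe differed by 0.79 for miR-1a-3p, 0.35 for miR-133a-3p and 0.29 for miR-133b-3p.

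Trp53 tumour 1, labelled spindloid, had 11.6% for miR-1a-3p, 16.6% for miR-133a-3p, 17.4% for miR-133b-3p, 19.6% for miR-133a-5p and 41.0% for miR-206-3p. Met tumour 2, also labelled spindloid, had only 0.774% for miR-1a-3p, 0.856% for miR-133a-3p and 1.35% for miR-133b-3p, yet 17.2% for miR-206-3p, and its miR-133a-5p was not above background. MiR-206-3p was thus out of step with the others in Met tumour 2 and, less so, in Trp53 tumour 1. Relative to the pools, miR-206-3p exceeded the mean of the other 3 (miR-1a-3p, miR-133a-3p and miR-133b-3p) by 17.7-fold in Met tumour 2, 2.71-fold in Trp53 tumour 1 and 1.68-fold in Trp53 tumour 4. The ratio was 0.98 in MetTrp53 tumour 5 and 0.79 in Met tumour 4.

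The dimmer probes gave the same order in Met tumour 2, with 15.7% for miR-206-3p against 0.693% for miR-1a-3p, whose dimmer probe was not above background, and 2.02% for miR-133b-3p. Over the kept spots of the brighter probe the coefficient of variation in that tumour was 7.23% for miR-206-3p and 5.37% for miR-1a-3p. In the authors' deposited table the difference from the pools in Met tumour 2 was -2.50 for miR-206-3p, -6.93 for miR-1a-3p and -6.73 for miR-133a-3p, on its log2 scale. These are values of single tumours, picked out after they were seen, and were not tested.

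Met tumour 5, a scirrhous adenocarcinoma, was close to the detection limit with 0.376% for miR-1a-3p, 0.302% for miR-133a-3p and 0.303% for miR-133b-3p. Trp53 tumour 6, of intermediate pathology, had only miR-133b-3p above background, at 0.112%. In both, miR-206-3p was not above background, where the limit was a larger share of the pools: the lowest signal well above background was 0.94% to 2.58% of the pools' miR-206-3p over the tumour arrays, against 0.0509% to 0.140% for miR-133b-3p. Small amounts relative to the pools could therefore be seen with miR-133b-3p but not with miR-206-3p.

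**Figure D3:**
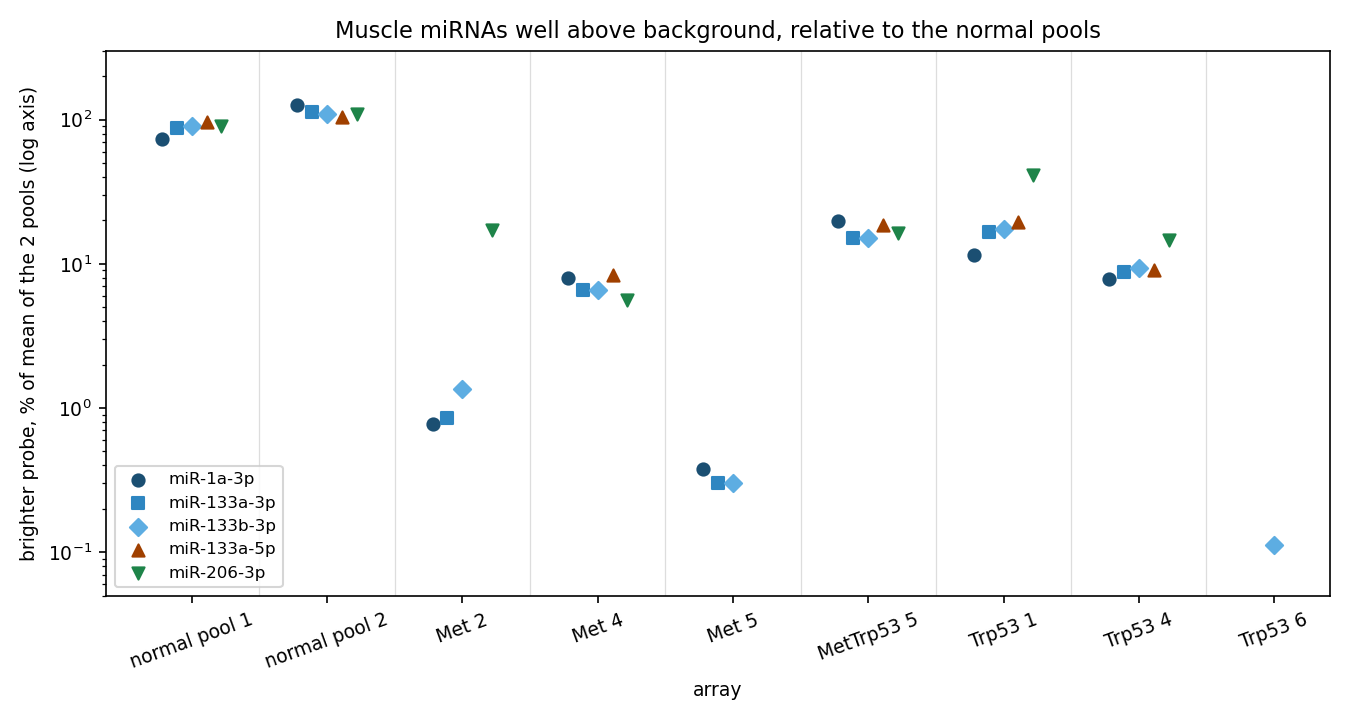
The brighter probe's signal of 5 muscle miRNAs in percent of the mean of the 2 pools, on a log axis, for both pools and the 7 tumours with miR-1a-3p, miR-133a-3p or miR-133b-3p well above background; only values above background are drawn. In Met tumour 2, miR-206-3p is at 17.2% and the other 3 between 0.774% and 1.35%.

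In the 16 other tumours the brighter miR-133b-3p probe reached at most 0.0728% of the pools, in MetTrp53 tumour 6. Over the 17 tumours with miR-1a-3p not well above background, that miRNA reached at most 0.123%. These are limits of signal, not amounts. The 7 tumours lay on slides 1 to 4, with 1 of 4, 2 of 5, 1 of 4 and 3 of 6 of the tumours there, and 0 of 4 on slide 5. Titles of Trp53 tumours 4 and 8 carry the same number. Tumour 4 had a miR-133b-3p level of 9.19 and tumour 8, labelled spindloid, was at the floor, so tumours that share a title number can differ in muscle miRNAs.

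Other products of these hairpins and close relatives on the array were miR-1a-1-5p, miR-1a-2-5p, miR-1b-3p, miR-1b-5p, miR-133b-5p, miR-206-5p and miR-499-3p, the opposite strands or near copies of the miRNAs above. All 7 were at the floor on all 25 arrays and detected on none. Of heart muscle, miR-208a and miR-208b, which come from the heart myosin genes, had 4 products on the array, and 0 of 4 were detected on any array, with summed brighter-probe signals of 1.73 to 5.37 in the pools and 0 to 5.87 in tumours. The summed signal of the 6 muscle miRNAs was 28460 to 38350 in the pools and 1.44 to 5476 in tumours.

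Markers of several other cell types moved with the muscle miRNAs, and their part in the result was not tested. Over all 330 miRNAs 7.88% were lower and 12.7% differed in either direction. Of 4 miRNAs listed for fat, 3 were lower in tumours at a limma adjusted p under 0.05. They were miR-378-3p, encoded within the metabolic regulator gene Ppargc1b, with a change of -3.48 (limma adjusted p = 3.11e-06), miR-378-5p and miR-365-3p. The change of miR-193b-3p was -2.09 (limma adjusted p = 0.158). MiR-378-5p was also the miRNA most like the muscle miRNAs over all 25 arrays. Whether the miR-378 strands read fat or muscle cannot be told apart here. The summed signals of all 4 were 1417 to 3362 in the pools and 157 to 1173 in tumours, which do not overlap. Of smooth muscle, miR-143-3p and miR-145-5p, 2 of 2 were lower, with sums of 275.4 to 289.9 in the pools and 27.1 to 203.9 in tumours. Of endothelium, miR-126-3p and miR-126-5p, 2 of 2 were lower, with 2125 to 2777 in the pools and 231 to 1762 in tumours. MiR-486-3p, of muscle and red blood cells, was lower, with a change of -0.12 (limma adjusted p = 0.0313), and detected on no tumour. It was tested only because the pools detected it, at 3.77 and 3.69, just above the floor. With every tumour at the floor, lower was the only direction in which it could differ.

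In lists of 3 to 6 miRNAs, a count of 0 is near that background share of 12.7%, and the counts of the other lists are given as values only. Of red blood cells, miR-451, miR-144-3p and miR-144-5p, 0 of 3 passed, and the pools' sums of 1653 to 2905 lay within the tumours' 223.1 to 4570. Of leukocytes, miR-142-3p, miR-142-5p, miR-150-5p and miR-223-3p, 0 of 4 passed, with 549.5 to 1564 in the pools and 198.4 to 2629 in tumours. Of epithelium, the miR-200 family and miR-205-5p, 0 of 6 passed, and all 6 were detected in both pools, with sums of 1162 to 1299 there and 2.45 to 9101 in tumours. The pools therefore held miRNAs of the epithelium list beside those of the muscle and fat lists.

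**Figure D4:**
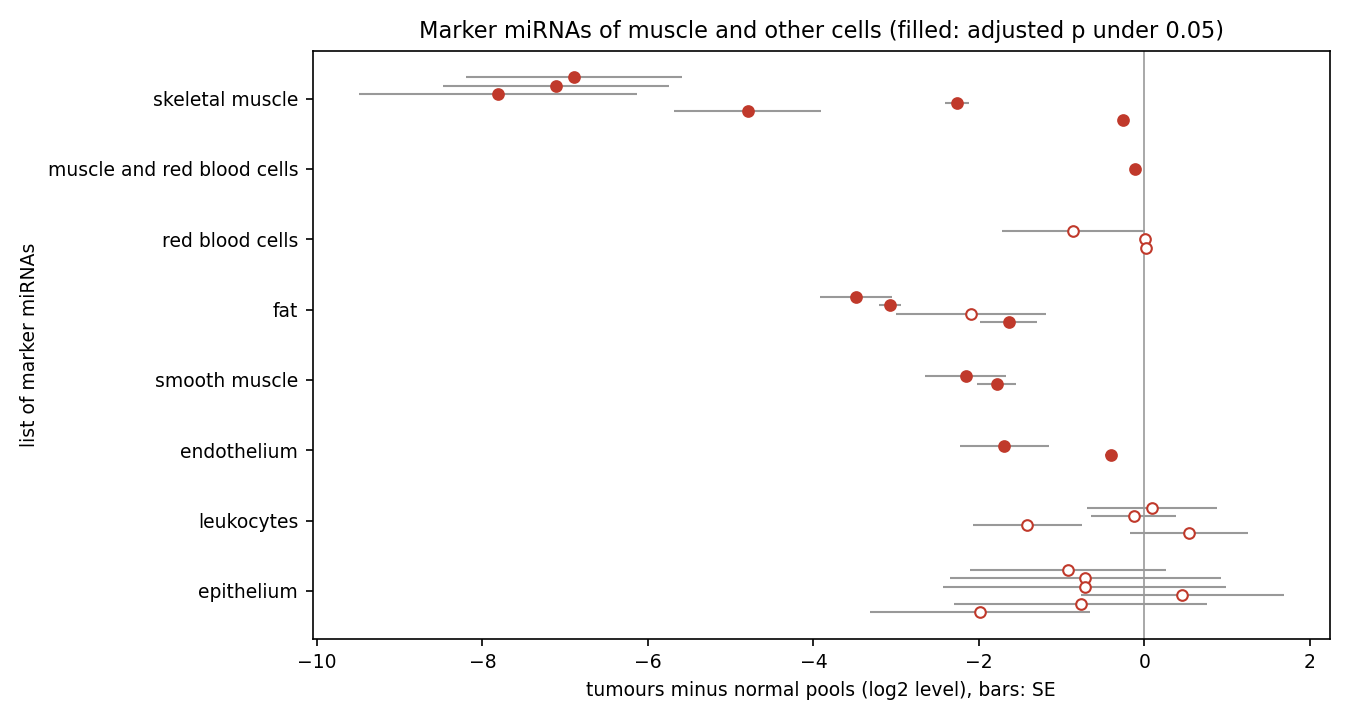
Points are limma changes in log2 level from the pools to the tumours, with SE as bars, for the tested miRNAs of each list; filled points passed an adjusted p of 0.05. The muscle miRNAs miR-1a-3p, miR-133a-3p and miR-133b-3p lie between -7.81 and -6.89, miR-206-3p at -4.79, miR-133a-5p at -2.26 and miR-499-5p at -0.25, and the lowest of the fat list is at -3.48.

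The miRNAs whose pattern was most like the muscle miRNAs were sought by Pearson's r with the mean level of miR-1a-3p, miR-133a-3p and miR-133b-3p, as a description over arrays that share slides and, mostly, floor values. Over all 25 arrays the 5 highest of 323 others were miR-378-5p (r = 0.75), miR-29c-5p (0.73), miR-378b (0.71), miR-338-3p (0.71) and miR-486-3p (0.68). Of these, miR-29c-5p and miR-486-3p were at the floor in all tumours, so their r rests on the pools. Among the muscle miRNAs outside that mean, r was 0.96 for miR-206-3p, 0.85 for miR-133a-5p and 0.66 for miR-499-5p, the last below all 5 of the others. Over the 23 tumours alone they were miR-503-5p (0.48), miR-204-5p (0.46), miR-193-5p (0.40), miR-378-5p (0.38) and miR-139-5p (0.36), against 0.91 for miR-206-3p and 0.81 for miR-133a-5p. MiR-499-5p was at the floor in all tumours and gave no r there.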

How the data were processed

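The deposited scanner files hold spot intensity on a linear scale, from the software Agilent Feature Extraction, version 10.7.3.1, per the file headers. The authors' deposited series table is on a log2 scale (column medians 1.72 to 1.91, correlation with the scanner's log2 values at least 0.996); the submitters' processing notes name RMA, and its centring is not given in the sources used here. Outlier spots were left out, spots averaged per probe, and arrays scaled to the 75th percentile of 220 probes detected on all arrays. A floor was then set and probes' log2 levels averaged. Groups were compared with limma 3.58.1 in R 4.3.3 in 1 model of 4 groups, with Benjamini-Hochberg adjustment over 330 miRNAs. The models were checked on simulated data. The number of arrays, above all the 2 pools, limits the precision. Alternatives changed background correction (normexp with an offset of 50, on median signals), scaling, floor, filter, probes, blocks and arrays left out. The 6 miRNAs and all lists were chosen with earlier results of these data known. Named miRNAs were the 6, the lists, other hairpin products and the 5 most alike over arrays and over tumours. Replicate numbers were given in accession order and pair nothing.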

Additional observations from a re-analysis of the deposited data

Results flagged for a closer look

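In 3 tumours some muscle miRNAs were marked as the highest of the genotype, by the ratio of the gap to the next tumour over the group's range. Chance marks about 1 in 20 groups of unfloored values. That rate does not apply here: where all other tumours are at the floor, any value above it is marked. The 9 marked values are also not separate, since the miRNAs move together. MetTrp53 tumour 5 was marked for miR-1a-3p (level 9.08), miR-133a-3p (8.94), miR-133b-3p (9.91), miR-133a-5p (4.25) and miR-206-3p (6.49), with all other MetTrp53 tumours at the floor of 3.61. Met tumour 4 was marked for miR-1a-3p (7.77), miR-133a-3p (7.76) and miR-133a-5p (3.67), the last of them just above the floor. Trp53 tumour 1 was marked for miR-133a-5p (4.29). Their part in the group differences is given by the fits that leave out each array.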

How the results depend on the processing

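All 6 muscle miRNAs kept the lower direction in tumours under the alternatives run, except miR-499-5p. With a floor 2 times higher its change was 0.0 in tumours together and in each genotype, and with normexp it was 0.0564 (limma adjusted p = 0.875) in Trp53 tumours; normexp also left miR-133a-5p there at limma adjusted p = 0.0777. By the exact permutation test of the rank sum, 0 of the 6 passed in tumours together, Met, MetTrp53 and Trp53 tumours, where the number of arrays bounds the p. Leaving out each array gave 5 to 6 called in tumours together and in Met, 6 in MetTrp53 and 2 to 6 in Trp53 tumours, the 2 without the nulliparous pool, and 0 in the comparisons among tumours. The 5 comparisons of tumours carrying muscle miRNAs passed under none of the detection rules, which counted 7 or 8 tumours. Sizes in tumours together moved with the processing. With a floor 4 times lower and 2 times higher they were -9.15 and -7.07 for miR-133b-3p, -8.36 and -6.11 for miR-1a-3p, -6.25 and -4.01 for miR-206-3p and -4.08 and -1.40 for miR-133a-5p. In the authors' deposited table and with normexp they were -9.23 and -6.00 for miR-133b-3p, -4.26 and -0.98 for miR-133a-5p and -2.46 and -0.02 for miR-499-5p. No paired analysis was possible because replicate numbers were given in accession order. Restricting to miRNAs detected on all arrays gave no value, since none of the 6 is. The spindloid comparison was not run with averaged title numbers, since tumours of a pair differ in pathology label. With parity as a covariate, added after seeing the data, it gave 0 of 6. The fits with parity left out the tumours without a stated parity.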
